A study of Mus musculus with 12 samples.

Results

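A set of 30 genes of cholesterol metabolism was followed through mouse prefrontal cortex. The members were chosen by name, with earlier results of these data known, as a list of synthesis enzymes, carriers, receptors, transporters and regulators. All 30 had a row among the 55421 genes of the count table, and all 30 were among the 20015 genes that passed the filter on low counts. They comprise 18 synthesis enzymes and 12 others: 3 proteins of sterol transport inside the cell, 3 of lipoprotein uptake, 2 efflux transporters, 2 enzymes of turnover and storage and 2 nuclear receptors. PolyA RNA came from male wild-type (WT) C57BL/6 mice of 10 to 12 weeks that had received 3 tone and foot shock pairings at 0.7 mA. Directly afterwards they were injected intraperitoneally with dexmedetomidine, a sedative agonist of alpha2 adrenergic receptors (labelled Dex; 40 μg per kg in 10 ml per kg), or with the same volume of normal saline (N.S.). Tissue was taken 2 h after training from prelimbic (PL) or infralimbic (IL) cortex, so that each region has a saline and a Dex group (PL saline and PL Dex, IL saline and IL Dex), with 3 libraries each. No group was left untrained, so training is common to all 4. The extraction protocol names prelimbic tissue for every sample while 6 titles name infralimbic cortex, and the titles were followed. Whether each library is from its own mouse is not stated in the labels, and the p-values cover library-to-library spread, which may be technical.

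Brain cholesterol is made locally, because lipoproteins of the blood do not cross the blood-brain barrier. Acetyl-CoA is built into squalene through mevalonate, and squalene is oxidised, closed into lanosterol and trimmed to cholesterol. The transcription factor SREBP2 (gene Srebf2) switches on synthesis and uptake genes when membrane sterol is low, whereas the liver X receptors (Nr1h2 and Nr1h3) answer to oxidised sterols and switch on the efflux transporters Abca1 and Abcg1. Astrocytes load cholesterol onto apolipoprotein E for delivery to neurons, and neurons dispose of surplus through the 24-hydroxylase Cyp46a1.

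Promoter sequences are shown for 5 members whose levels differed between the regions, 4 that were higher in PL saline and 1 that was lower, so that the letters shared by the synthesis genes can be seen. Each runs 5′ to 3′ from 250 bases before to 50 bases after an annotated start, from RefSeq on GRCm38.p6. Capitals mark every match to CCAAT, read as ATTGG on the other strand, which is the letters of the box that the factor NF-Y binds, and to TCACCNCA, a pattern written after these promoters had been read and close to the sterol response element.
Hmgcs1, plus strand, chr13:119690101-119690400: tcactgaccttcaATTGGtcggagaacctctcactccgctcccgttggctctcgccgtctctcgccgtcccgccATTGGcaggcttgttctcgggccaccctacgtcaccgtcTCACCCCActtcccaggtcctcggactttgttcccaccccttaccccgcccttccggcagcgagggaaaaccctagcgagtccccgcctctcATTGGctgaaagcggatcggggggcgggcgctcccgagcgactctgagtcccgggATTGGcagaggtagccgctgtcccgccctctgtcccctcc
Idi1, plus strand, chr13:8885356-8885655: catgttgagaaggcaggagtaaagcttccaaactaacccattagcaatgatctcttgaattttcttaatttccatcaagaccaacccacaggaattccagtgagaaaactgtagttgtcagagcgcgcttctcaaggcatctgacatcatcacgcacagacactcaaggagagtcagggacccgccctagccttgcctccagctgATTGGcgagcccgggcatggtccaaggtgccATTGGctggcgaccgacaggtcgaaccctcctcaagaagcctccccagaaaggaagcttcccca
Msmo1, minus strand, chr8:64733529-64733828: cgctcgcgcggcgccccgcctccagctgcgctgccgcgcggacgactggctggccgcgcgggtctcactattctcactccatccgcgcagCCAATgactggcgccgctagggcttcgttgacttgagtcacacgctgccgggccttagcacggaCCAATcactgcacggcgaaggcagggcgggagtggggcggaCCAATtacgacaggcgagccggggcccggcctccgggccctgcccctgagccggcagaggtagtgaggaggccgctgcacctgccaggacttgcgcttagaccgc
Hsd17b7, minus strand, chr1:169969156-169969455: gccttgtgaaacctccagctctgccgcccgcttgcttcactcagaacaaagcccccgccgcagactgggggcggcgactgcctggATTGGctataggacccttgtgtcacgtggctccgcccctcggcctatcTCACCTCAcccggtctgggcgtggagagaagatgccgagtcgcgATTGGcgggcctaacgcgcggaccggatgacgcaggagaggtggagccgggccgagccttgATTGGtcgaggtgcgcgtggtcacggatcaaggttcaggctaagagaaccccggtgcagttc
Abca1, minus strand, chr4:53159846-53160145: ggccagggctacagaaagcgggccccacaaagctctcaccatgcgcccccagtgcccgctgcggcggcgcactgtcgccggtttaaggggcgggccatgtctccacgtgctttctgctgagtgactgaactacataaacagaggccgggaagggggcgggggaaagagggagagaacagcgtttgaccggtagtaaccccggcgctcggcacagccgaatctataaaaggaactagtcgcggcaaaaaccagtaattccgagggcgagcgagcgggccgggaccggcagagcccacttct
Hmgcs1 held 4 CCAAT matches, Msmo1 and Hsd17b7 3 each and Idi1 2, while the Abca1 window held none. These counts did not follow the regional calls given below. Mvk held 5 matches, Nsdhl 4 and Ebp, Mvd and Dhcr7 2 each, and none of these was called between the regions. Cyp51 and Sc5d, both called higher in PL saline, held 1 each. A promoter was listed for 24 of the 30 members, with 32 windows in all. At least 1 CCAAT match lay in a window of 14 of the 15 synthesis genes with a promoter (14 of 18 windows, 77.8%), Acat2 being the exception, and of 3 of the 9 others (3 of 14 windows, 21.4%). Of all 32851 promoters of this length, 37.4% held one. TCACCNCA stood in 4.42% of all promoters and in those of Hmgcs1, Hsd17b7, Cyp51 and Apoe. The longer TCACNCCAC, found in 1.24% of all promoters, was present in Hmgcs1 only among the members, over the same bases as its TCACCNCA match. The E-box CACGTG, found in 7.15% of all promoters, had a match in 4 members. Both strands were searched for each pattern, and a match describes these letters only, not a bound site.

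Library totals ran from 5419187 to 16530596 counts, and single members had between 7 counts (Nr1h3) and 15485 counts (Lrp1) in a library. Marker genes of the tissue were present in every library, with summed neuron markers of 4018 to 6739 CPM (the count normalised to the TMM-scaled library size) and summed astrocyte markers of 5194 to 7191 CPM. The libraries also differed in how counts depend on a gene's GC content. The slope of log2 count per 10% GC lay between -0.318 and -0.077 in PL saline and between -0.0765 and 0.127 in PL Dex. IL saline libraries had slopes of 0.0286 to 0.146, and IL Dex libraries had slopes of -0.00528 to 0.199. For this reason each comparison below was also fitted with an offset that removes the dependence on GC.

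Per kilobase of summed exon length, Apoe was the most abundant member, at a mean level over the 12 libraries of 148 CPM per kb. Hmgcs1, which condenses acetoacetyl-CoA with acetyl-CoA ahead of mevalonate, followed with 52.7 CPM per kb. The endocytic receptor Lrp1 had 46.2 CPM per kb and Cyp46a1 had 36.4 CPM per kb. Squalene synthase (Fdft1, 17.1 CPM per kb), the lanosterol demethylase Cyp51 (16.0 CPM per kb) and the sterol desaturase Sc5d (15.6 CPM per kb) led the other synthesis genes. Nr1h3 (0.952 CPM per kb) and the farnesyl diphosphate synthase gene Fdps (0.689 CPM per kb) were lowest, and Fdps rested on 17 to 46 counts per library. Both share much of their span with another gene on the same strand, as given below, so their rank is uncertain.

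The clearest contrast among the members was between regions in saline mice. Of the 18 synthesis enzymes 8 were higher in PL saline than in IL saline and none was lower, while among the other 12 members Stard4 was higher and Abca1 and Lrp1 were lower. A call here is an adjusted p under 0.05 in edgeR's quasi-likelihood test, adjusted by the Benjamini-Hochberg method over all 20015 genes. Over all genes tested 9.97% were called higher and 8.7% lower, against 9 and 2 of the 30 members (30.0% and 6.67%). Shares of members are descriptions, because the list was chosen with earlier results of these data known. The median log2 difference was 0.31 over the synthesis enzymes, -0.19 over the other members and -0.02 over all genes tested. The 3 libraries of each group did not overlap for 16 of 30 members, 10 of them higher and 6 lower in PL (53.3%, against 40.3% of all genes). In bulk tissue, more cells of a type and more RNA per cell cannot be told apart.

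Among the enzymes that lead to squalene, 3 of 8 were higher in PL saline. Hmgcs1 (ENSMUSG00000093930, GRCm38 chromosome 13, 119690379 to 119708260, plus strand) had levels of 317, 368 and 315 CPM in PL saline and of 167, 176 and 177 CPM in IL saline. Every PL library lay far above every IL library, with a log2 difference of 0.94 (SE 0.119, a 1.92-fold difference, edgeR adjusted p = 4.34e-05). The isomerase Idi1, which balances the 2 isoprene building blocks, had 16.7, 23.1 and 20.9 CPM against 11.1, 12.9 and 13.4 CPM. These groups did not overlap either, at a log2 difference of 0.70 (SE 0.16, edgeR adjusted p = 0.00509). Fdft1, which joins the farnesyl units into squalene, had 64.4, 86.1 and 91.0 CPM against 50.1, 58.0 and 61.9 CPM. Its lowest PL library stood just above its highest IL library, and the log2 difference was 0.51 (SE 0.123, edgeR adjusted p = 0.0076). Acat2, Mvk, Pmvk, Mvd and Fdps, which supply acetoacetyl-CoA, phosphorylate and decarboxylate mevalonate and build farnesyl diphosphate, were not called, with log2 differences of -0.24 to 0.19.

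Of the 10 enzymes from squalene onwards, 5 were higher in PL saline. Squalene epoxidase (Sqle) had 63.9, 82.2 and 82.8 CPM in PL saline against 54.2, 56.4 and 59.2 CPM in IL saline, a log2 difference of 0.43 (SE 0.115, edgeR adjusted p = 0.0128). Cyp51 had 82.1, 85.0 and 78.0 CPM against 61.1, 60.9 and 64.2 CPM, a log2 difference of 0.40 (SE 0.105, edgeR adjusted p = 0.0124). In both genes all 3 PL libraries were above all 3 IL libraries. Msmo1, the oxidase that starts removal of the C4 methyl groups, had 80.2, 100.7 and 102.5 CPM against 64.4, 68.9 and 67.7 CPM (log2 difference 0.50, SE 0.121, edgeR adjusted p = 0.00774). Hsd17b7, the ketoreductase of the same demethylation, had 31.7, 34.7 and 41.8 CPM against 24.3, 24.7 and 26.8 CPM (log2 difference 0.51, SE 0.128, edgeR adjusted p = 0.00884). The groups were again separate, with the widest spread among the PL libraries. Sc5d, which introduces a late double bond, had 89.3, 100.3 and 91.9 CPM against 58.2, 70.6 and 66.1 CPM (log2 difference 0.53, SE 0.121, edgeR adjusted p = 0.00501), also without overlap. Lss, Tm7sf2, Nsdhl, Ebp and Dhcr7 were not called, with log2 differences of -0.27 to 0.34.

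**Figure D1:**
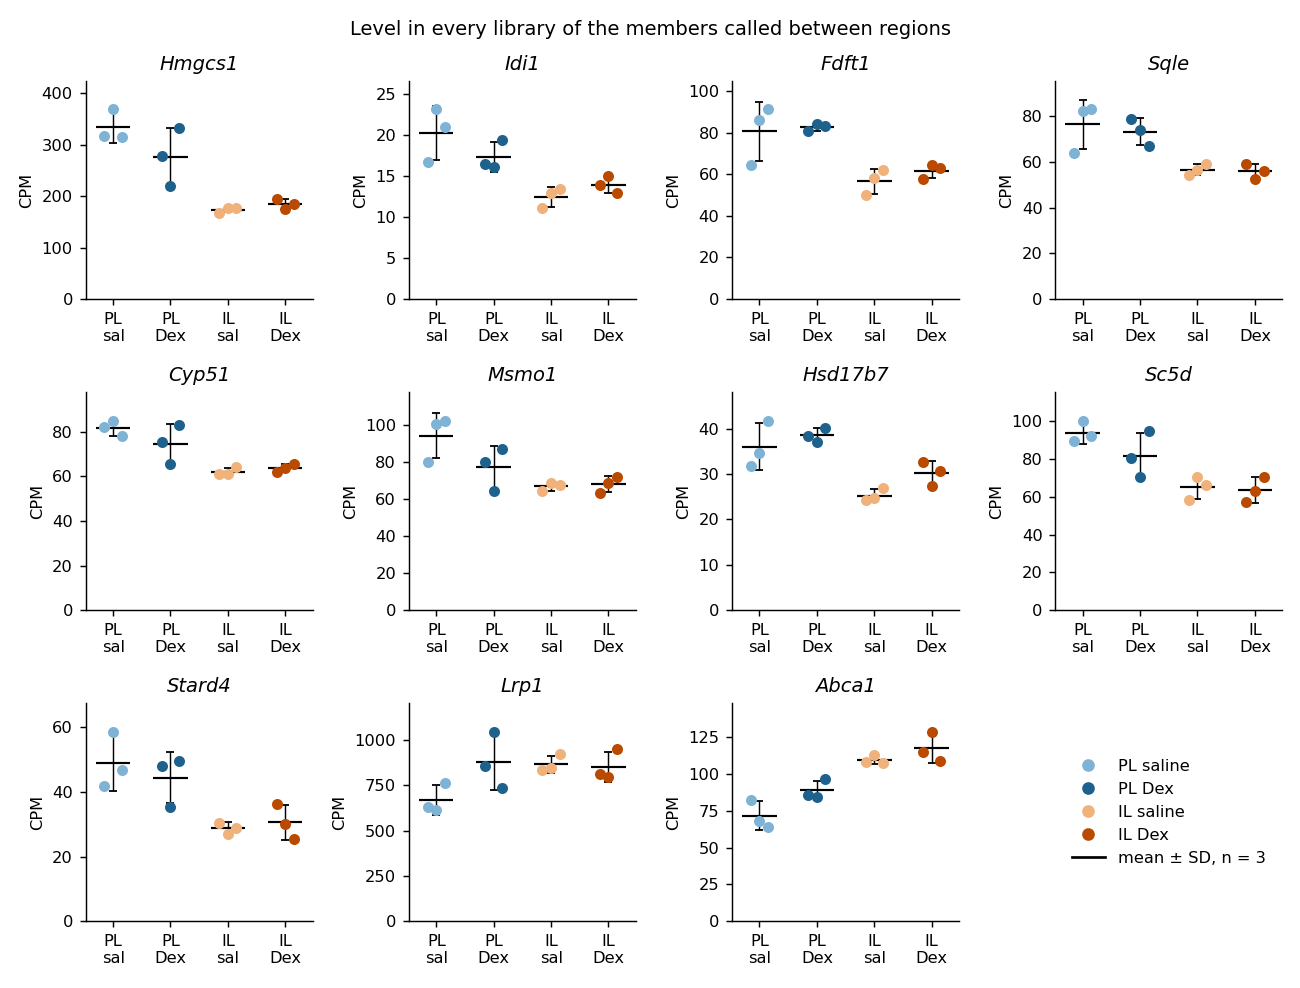
Level of each called member in each of the 12 libraries (CPM on TMM-scaled library sizes, linear axes), by region and treatment; points are libraries, long lines are group means and whiskers are the SD of 3 libraries. Hmgcs1 is at 315 to 368 CPM in PL saline and at 167 to 177 CPM in IL saline, and Abca1 shows the opposite order.

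Stard4, a soluble carrier that moves cholesterol between membranes, followed the synthesis enzymes. Its levels were 41.6, 58.4 and 46.6 CPM in PL saline and 30.4, 26.98 and 28.9 CPM in IL saline, with no overlap and a log2 difference of 0.77 (SE 0.156, edgeR adjusted p = 0.00217). Npc1 and Npc2, which export cholesterol from lysosomes, were not called, with log2 differences of -0.15 and -0.06.

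The 5 efflux and uptake genes had negative log2 differences as fitted, and that of Abca1 was of the same size with the GC offset (-0.65). Abca1 (ENSMUSG00000015243, GRCm38 chromosome 4, 53030787 to 53159895, minus strand), which passes cholesterol to apolipoproteins, had 82.5, 67.8 and 64.0 CPM in PL saline and 108, 113 and 107 CPM in IL saline. All PL libraries were below all IL libraries, and the log2 difference was -0.61 (SE 0.111, edgeR adjusted p = 0.000867). Lrp1, a receptor for apolipoprotein E particles, had 631, 613 and 765 CPM against 838, 844 and 921 CPM, a log2 difference of -0.37 (SE 0.12, edgeR adjusted p = 0.0341). The call of Lrp1 depended on GC: with the GC offset its log2 difference was -0.08 (adjusted p = 0.602). Abcg1, which exports cholesterol to lipoprotein particles, missed the threshold at 87.2, 79.9 and 87.8 CPM against 97.6, 101.8 and 101.8 CPM (log2 difference -0.24, edgeR adjusted p = 0.0836). Apoe had a log2 difference of -0.36 (adjusted p = 0.0537) and Cyp46a1 of -0.31 (adjusted p = 0.0546). With the labels' batch number as a replicate block Cyp46a1 was called (edgeR adjusted p = 0.0429), and with the GC offset its log2 difference was 0.01. Nr1h2, the liver X receptor with the higher level here, had a log2 difference of -0.42 (edgeR adjusted p = 0.0821). With the GC offset the log2 differences of Apoe, Abcg1 and Nr1h2 shrank to -0.02, -0.09 and -0.07. Lrp8, a neuronal receptor for reelin and apolipoprotein E, the enzyme Soat1, which esterifies cholesterol for storage, and Nr1h3 were not called, at -0.03, 0.05 and -0.08.

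With the GC offset, 8 members were called higher and 1, Abca1, lower, against 7.8% and 5.69% of all genes. Hsd17b7 then had an edgeR adjusted p of 0.0569. The synthesis median was 0.34 with the offset, while the median of the other 12 members moved from -0.19 to -0.07, with 4 positive instead of 2. Most called genes had smaller log2 differences with the offset than as fitted. Hmgcs1 moved from 0.94 to 0.77, Idi1 from 0.70 to 0.49 and Stard4 from 0.77 to 0.62. Msmo1, Hsd17b7, Sc5d and Cyp51 fell to 0.38, 0.37, 0.35 and 0.32. Fdft1 (0.62) and Sqle (0.44) did not fall, and Mvd, not called, moved from 0.11 to 0.43. Hmgcs1, Idi1, Msmo1, Sc5d, Stard4 and Abca1 were called whichever of the 12 libraries was left out. Fdft1 had an adjusted p of 0.0515 without IL saline 1, and Hsd17b7 of 0.0567 without PL saline 3. Sqle was at 0.0765 without PL saline 2, 0.0571 without PL saline 3, 0.0587 without IL saline 1 and 0.0516 without IL saline 2. Cyp51 was at 0.0626 without PL saline 2, 0.0504 without IL saline 1 and 0.0582 without IL saline 2. Lrp1 was at 0.108 without PL saline 1, 0.16 without PL saline 2, and 0.066, 0.0728 and 0.119 without IL saline 1, 2 and 3. Conversely, Apoe, Cyp46a1, Nr1h2 and Abcg1 passed the threshold in 1 or more of these fits. Apoe was at 0.0352 without IL saline 1, 0.0497 without PL Dex 2 and 0.0419 without IL Dex 1. Cyp46a1 was at 0.0454 without PL saline 3, 0.0402 without PL Dex 2 and 0.0282 without PL Dex 3. Without PL Dex 3, Nr1h2 was at 0.0357 and Abcg1 at 0.0446. Marker sums moved with the region. Neuron markers summed to 5936 to 6369 CPM in PL saline and 4018 to 4434 CPM in IL saline. Of 8, 3 were called higher and 1 lower, and their median log2 difference was 0.20. Astrocyte markers summed to 6444 to 7191 CPM and 5436 to 5836 CPM (1 of 8 called higher, 1 lower). Their median log2 difference was -0.09, opposite in sign to the difference of the sums. Oligodendrocyte markers overlapped at 2590 to 3508 CPM and 2999 to 3814 CPM (0 of 8 called). Oligodendrocyte precursor markers were lower in PL saline, at 187 to 199 CPM against 224 to 239 CPM (2 of 4 called lower). Endothelial markers summed to 166 to 172 CPM against 146 to 149 CPM (1 of 5 called higher), with a median log2 difference of 0.02. Striatal markers were lower in PL saline, at 83.4 to 257 CPM against 447 to 563 CPM (4 of 5 called lower), as were ependymal markers at 2.34 to 3.50 CPM against 10.8 to 16.3 CPM (3 of 4 called lower). No marker of these lists was at 0 in every library, and their part in the regional differences was not tested.

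Several members share sequence or genomic span with other genes, and counting used no strand. The span of Hmgcs1 overlaps Gm48342 on the other strand over 6190 bases, with 462 identical transcript bases. Gm48342 had a mean of 3.14 CPM. Npc1 overlaps Rmc1 on the other strand over 967 bases, and Tm7sf2 overlaps Vps51 on the same strand over 532 bases. Rmc1 and Vps51 had means of 27.9 and 28.1 CPM. Fdft1 overlaps Ctsb on the other strand over 774 bases, and Ctsb had a mean of 354.9 CPM. Fdft1 also has a copy, Gm6781, that matches it at 97.4% over 1249 bases. Idi1 shares 684 identical bases with Gm13502 and matches Gm35570 at 97.7% over 681 bases. Cyp51 overlaps Akap9 over 166 bases, and Acat2 matches Acat3 at 97.7% over 1477 bases and Tcp1 at 98.7% over 445 bases. On the same strand, Fdps overlaps Gm43738 over 7512 bases and Nr1h3 overlaps Gm13783 over 6873 bases. On the other strand, Mvd overlaps Gm20388 over 9822 bases, Lss overlaps 4930483K19Rik over 11268 bases and Lrp8 overlaps Lrp8os2 over 16990 bases. Lrp8os2 had a mean of 7.97 CPM, and Gm43738 and Gm13783 had means of 0.059 and 0.306 CPM. In Msmo1 a stretch of about 200 bases recurs in 10 other genes at 95% to 97.5%. The levels of these members are uncertain to the extent that reads were shared or left uncounted.

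In Dex mice the regional difference had the same sign for the members called in saline mice except Lrp1, with fewer calls. Lrp1 had a log2 difference of 0.04 in Dex mice (edgeR adjusted p = 0.895), beside -0.37 in saline mice. Hmgcs1, Fdft1, Sqle and Stard4 were higher in PL Dex than in IL Dex and Abca1 was lower, that is 4 and 1 of 30 members (13.3% and 3.33%) against 3.8% and 3.54% of all genes. The groups did not overlap for 10 of 30 members (33.3%, against 21.6% of all genes). Of the 18 synthesis enzymes 17 had a positive log2 difference, Dhcr7 being the exception, and the median was 0.33, against -0.01 over all genes tested. These groups share no library with the saline comparison, although the spread was estimated over all 12 libraries.

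Hmgcs1 had 277, 220.5 and 332 CPM in PL Dex and 193, 176 and 185 CPM in IL Dex, without overlap (log2 difference 0.58, SE 0.12, edgeR adjusted p = 0.0041). Stard4 had 48.0, 35.3 and 49.5 CPM against 36.2, 30.2 and 25.4 CPM (log2 difference 0.55, SE 0.161, edgeR adjusted p = 0.042), and here PL Dex 2 fell below IL Dex 1. Fdft1 was at 80.7, 83.9 and 83.2 CPM against 57.7, 64.5 and 62.8 CPM (log2 difference 0.42, SE 0.126, edgeR adjusted p = 0.0453). For Sqle the levels were 78.6, 74.0 and 66.8 CPM against 59.0, 52.5 and 55.8 CPM (log2 difference 0.39, SE 0.118, edgeR adjusted p = 0.0461). Both genes were separate between the regions, but with the replicate block Sqle had an edgeR adjusted p of 0.0507. Abca1 had 85.6, 84.3 and 96.2 CPM in PL Dex and 114, 128 and 109 CPM in IL Dex, without overlap (log2 difference -0.40, SE 0.111, edgeR adjusted p = 0.031). Idi1, Cyp51, Msmo1, Hsd17b7 and Sc5d had log2 differences of 0.32, 0.23, 0.18, 0.35 and 0.36 and were not called. Whether the regional difference of a member changes with the drug is the interaction given below.

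Of these 5 calls, that of Hmgcs1 held whichever library was left out, with adjusted p of at most 0.0305. Fdft1 lost its call in 10 of 12 such fits (edgeR adjusted p 0.0508 to 0.154), all except those without PL saline 1 or PL saline 3. Sqle lost it in 9 (0.0546 to 0.188), all except those without PL saline 1, PL saline 3 or PL Dex 3. Stard4 lost it in 7 (0.0528 to 0.191), those without PL Dex 1 or 3, IL saline 1, 2 or 3, or IL Dex 2 or 3. Abca1 lost it in 4, with adjusted p of 0.11 without PL Dex 1, 0.0785 without PL Dex 2, 0.0623 without IL Dex 1 and 0.18 without IL Dex 2. Sc5d was called without PL Dex 2 (0.0227). With only the 6 libraries of the groups compared, Hmgcs1 was the 1 member called (3.33%), against 5.79% of all genes. Without PL saline 1 and PL Dex 1 it was again the 1 member called, against 5.23% of all genes. PL saline 1 and PL Dex 1 are the PL libraries with the largest striatal marker sums. With the GC offset 4 were called higher and 1 lower, against 5.42% and 4.03% of all genes. Neuron markers summed to 5136 to 6739 CPM in PL Dex and 4221 to 4688 CPM in IL Dex (2 of 8 called higher, 2 lower). Striatal markers summed to 86.7 to 175 CPM and 431 to 663 CPM (3 of 5 called lower). The part of these markers was not tested here either.

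**Figure D2:**
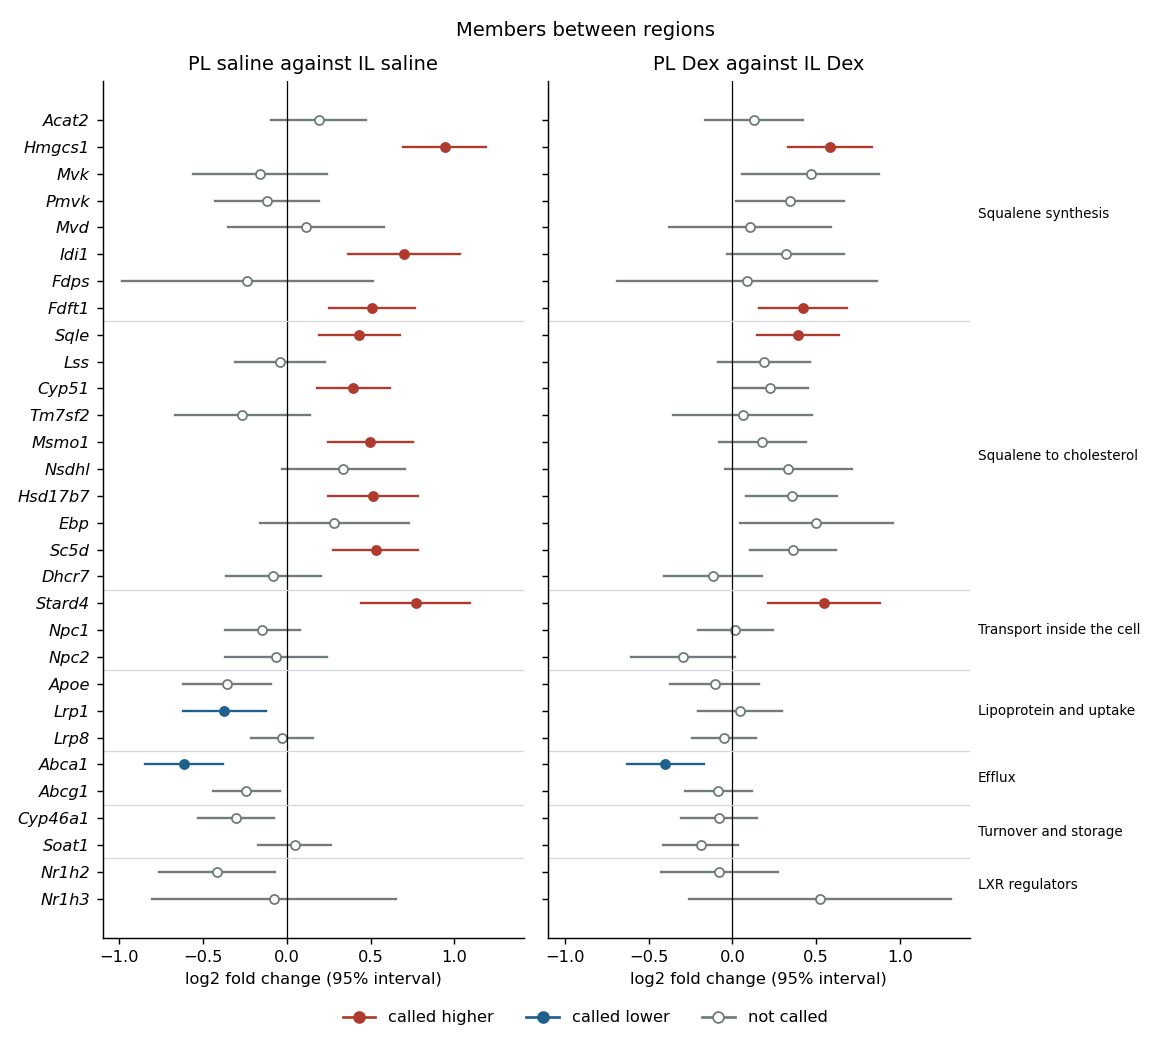
Log2 difference of each member between PL and IL in saline mice (left) and in Dex mice (right), with 95% intervals from the edgeR fit; filled points are called at an adjusted p under 0.05. Synthesis enzymes lie mostly right of 0, with Hmgcs1 at 0.94 and 0.58, and Abca1 lies left of 0 at -0.61 and -0.40.

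The drug comparison asked whether the members differ 2 h after training between Dex and saline mice. In PL no member was called by edgeR (0 of 30, against 0.02% or 4 of all genes), nor by DESeq2. At an unadjusted p under 0.05, 8 of 30 members (26.7%) differed, against 13.9% of all genes. The groups of 6 members did not overlap, and all of these were higher in PL Dex, which is 20%, against 14.4% of all genes for either direction. The median log2 change was 0.05 over the synthesis enzymes and 0.20 over the other 12 members, against 0.00 over all genes tested. These medians were -0.04, 0.07 and 0.01 with the GC offset, so that of the synthesis enzymes changed sign.

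The values by role went as follows. Lrp1 had 858, 1046 and 736 CPM in PL Dex against 631, 613 and 765 CPM in PL saline, with PL Dex 3 below PL saline 3 (log2 change 0.39, SE 0.12, edgeR adjusted p = 0.207). Abca1 had 85.6, 84.3 and 96.2 CPM against 82.5, 67.8 and 64.0 CPM, every PL Dex library being above every PL saline library (log2 change 0.32, SE 0.112, edgeR adjusted p = 0.249). Abcg1 was also separate, at 96.7, 108 and 93.5 CPM against 87.2, 79.9 and 87.8 CPM (log2 change 0.23, SE 0.0972, edgeR adjusted p = 0.313). So were the levels of Cyp46a1, with 122, 135 and 115 CPM against 95.7, 95.5 and 108 CPM (log2 change 0.32, SE 0.11, edgeR adjusted p = 0.245). The efflux transporters, the receptor Lrp1 and the neuronal hydroxylase thus had positive log2 changes in PL, none past the threshold. Abca1 was at 0.35 with the GC offset, Lrp1 at 0.16, Abcg1 at 0.09 and Cyp46a1 at 0.07.

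Synthesis enzymes differed in sign among themselves. Hmgcs1 had 277, 220.5 and 332 CPM in PL Dex against 317, 368 and 315 CPM in PL saline, with PL Dex 3 inside the saline range (log2 change -0.27, SE 0.118, edgeR adjusted p = 0.322). Msmo1 had 80.1, 64.3 and 87.2 CPM against 80.2, 100.7 and 102.5 CPM, which overlapped (log2 change -0.29, SE 0.123, edgeR adjusted p = 0.308). Mevalonate kinase (Mvk) had 12.9, 14.5 and 11.4 CPM against 9.57, 7.96 and 11.2 CPM, just separate (log2 change 0.43, SE 0.196, edgeR adjusted p = 0.334). Lanosterol synthase (Lss), which closes the sterol rings, had 52.6, 59.5 and 39.7 CPM against 43.7, 41.6 and 39.5 CPM, with PL Dex 3 among the saline values (log2 change 0.28, SE 0.132, edgeR adjusted p = 0.346).

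PL Dex 3 decided the count. Without it edgeR called 4 members: Hmgcs1 lower (log2 change -0.42, adjusted p = 0.0209), and Lss (0.44, 0.0243), Lrp1 (0.51, 0.0106) and Cyp46a1 (0.37, 0.0414) higher. That is 13.3% of the members, beside 7.07% of all genes called in the same fit. PL Dex 3 had a GC slope of -0.0765, against 0.127 and 0.113 in PL Dex 1 and 2 and -0.077 in PL saline 3. The fit without PL Dex 3 had no GC offset, and the part of GC content in these calls was not tested. Without the filter on low counts Lrp1 was called (edgeR adjusted p = 0.0441), beside 193 of 38950 genes (0.496%) in the same fit. The PL libraries also differed in marker sums, although no marker of the lists was called between PL Dex and PL saline. Oligodendrocyte markers summed to 4897, 1838 and 3087 CPM in PL Dex 1, 2 and 3 and to 3508, 2590 and 2789 CPM in PL saline. Neuron markers summed to 5750.1, 5136 and 6739 CPM in PL Dex and to 5936, 6075 and 6369 CPM in PL saline, and the part of these sums in the members' values was not tested. The PL Dex and IL Dex comparisons each share libraries with the regional ones: the PL saline values of Hmgcs1, Abca1 and Lrp1 enter both, so the 2 sets of values are not independent.

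**Figure D3:**
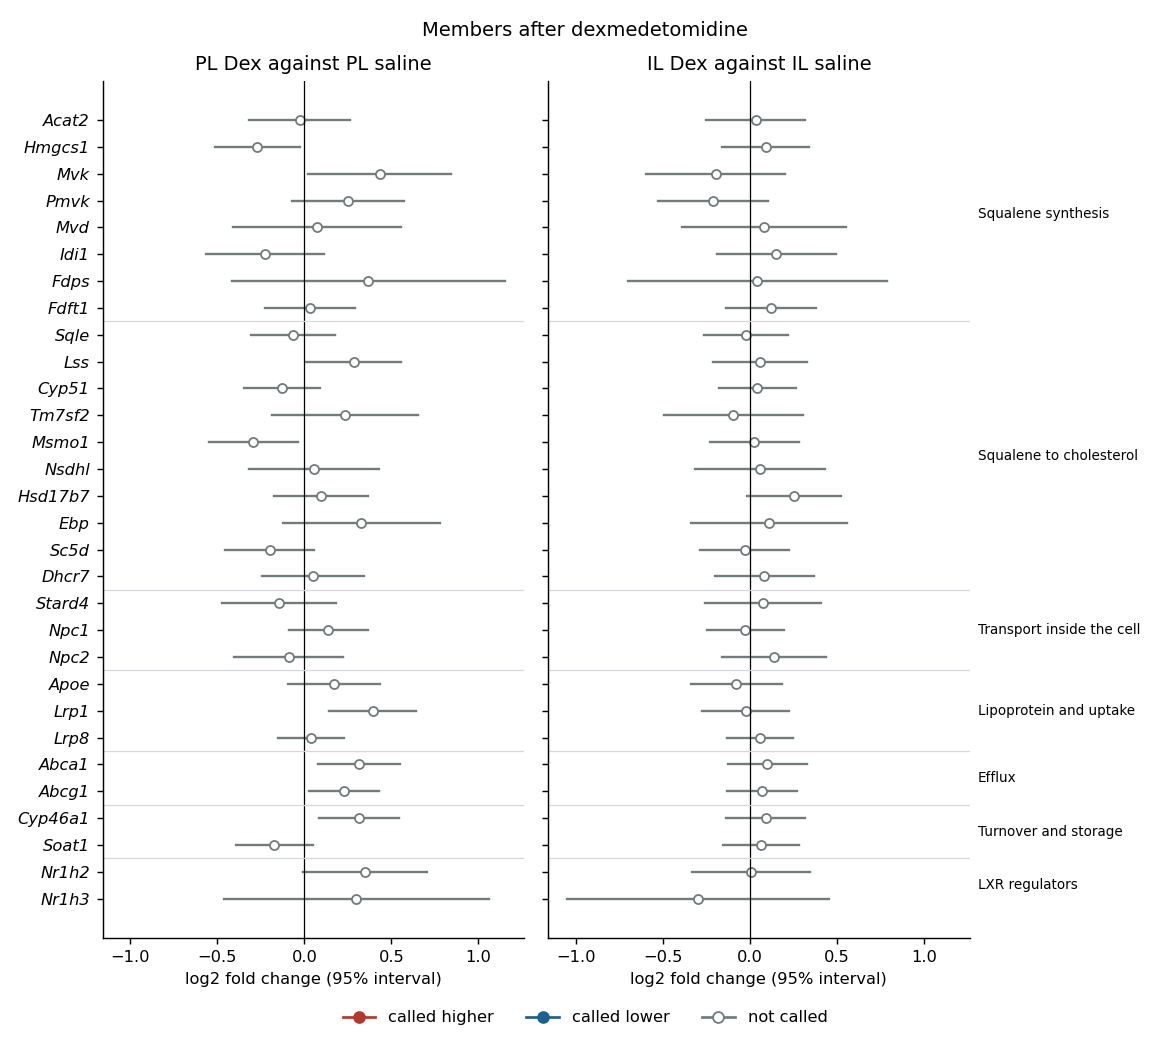
Log2 change of each member with Dex against saline in PL (left) and IL (right), with 95% intervals from the edgeR fit; no point is filled, since none was called. In PL the changes run from -0.29 (Msmo1) to 0.43 (Mvk), and in IL from -0.30 (Nr1h3) to 0.26 (Hsd17b7).

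In IL the members' values with Dex stayed near those with saline. None was called by edgeR (0.0% of all genes) or DESeq2, and none had an unadjusted p under 0.05, against 1.06% of all genes. The groups did not overlap for 4 members (13.3%, against 7.78% of all genes): Hsd17b7, Abcg1 and Lrp8 had higher values and the mevalonate phosphate kinase Pmvk had lower ones. Hsd17b7 had the largest log2 change in IL among the synthesis enzymes, 0.26, with 32.6, 27.5 and 30.6 CPM in IL Dex against 24.3, 24.7 and 26.8 CPM in IL saline. Hmgcs1, with 193, 176 and 185 CPM against 167, 176 and 177 CPM, had a log2 change of 0.09 (95% interval -0.16 to 0.34), and Abca1 one of 0.10 (95% interval -0.13 to 0.33).

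The difference between the drug effects in PL and IL, tested as an interaction, was called for no member by edgeR (0.0% of all genes) or DESeq2. A total of 4 members had an unadjusted p under 0.05 (13.3%, against 6.73% of all genes). They were Mvk (difference of log2 changes 0.63), Pmvk (0.46), Lrp1 (0.42) and Hmgcs1 (-0.36), each with an edgeR adjusted p of 0.716. These differences with the GC offset were 0.40 for Mvk, 0.22 for Pmvk, 0.17 for Lrp1 and -0.21 for Hmgcs1. Mvk had 7.48, 10.5 and 9.87 CPM in IL Dex against 9.98, 10.3 and 11.8 CPM in IL saline, a log2 change of -0.20 beside 0.43 in PL. For Lrp1 the IL levels were 815, 796 and 950 CPM with Dex and 838, 844 and 921 CPM with saline, which overlapped throughout.

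The members' changes in PL ran with their GC content. Across the 30 members, Spearman's rho between the GC content of the longest transcript and the log2 change with Dex in PL was 0.68, and with the GC offset it was -0.01. It was 0.62 over the 16397 genes with a mean above 2 CPM. For PL saline against IL saline it was -0.71 over the members, -0.31 with the offset. Over the same 16397 genes rho was -0.48 as fitted and -0.04 with the offset. These points come from the same libraries and the same fits, so the values are descriptions. Among the 15 members with more than 50.1% GC, 14 had a positive log2 change with Dex in PL (median 0.25), and among the 15 with less, 6 did (median -0.06). With the offset these were 10 and 6 members. With the offset the log2 changes of Hmgcs1, Msmo1, Mvk and Lss were -0.12, -0.19, 0.22 and 0.28, against -0.27, -0.29, 0.43 and 0.28 without it. The sign of the change with Dex in PL differed between both fits for 4 of 30 members (Mvd, Fdft1, Dhcr7 and Apoe). For PL saline against IL saline it differed for 7 (Mvk, Pmvk, Dhcr7, Cyp46a1, Soat1, Npc2 and Nr1h3). The part of GC content in these changes was not tested beyond the offset.

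**Figure D4:**
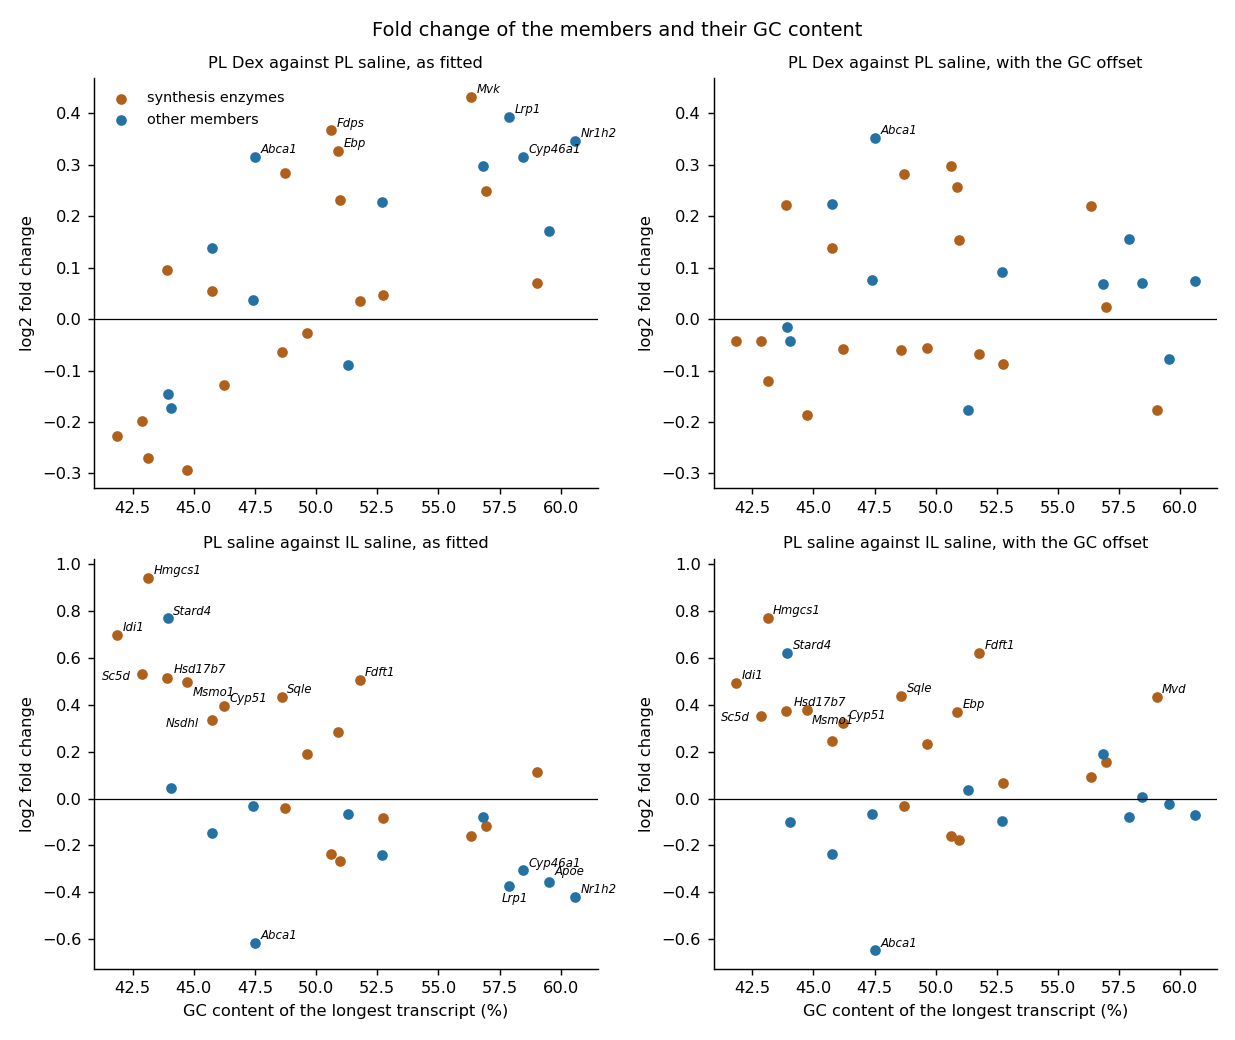
GC content of each member's longest transcript (%, horizontal) and its log2 fold change (vertical), for PL Dex against PL saline (top) and PL saline against IL saline (bottom), as fitted (left) and with the GC offset (right); orange points are synthesis enzymes and blue points the other members. The slope across members seen on the left at the top is gone on the right, where rho is -0.01, while Hmgcs1 and Abca1 keep the top and bottom places at the bottom right.

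The other members are given by their range over the libraries. Npc1 ranged from 60.7 to 78.1 CPM, Lrp8 from 126 to 143 CPM, Soat1 from 56.9 to 71.8 CPM and Dhcr7, the last reductase of the pathway, from 22.9 to 31.2 CPM. Acat2 ranged from 25.1 to 36.3 CPM, Npc2 from 22.9 to 35.1 CPM and Nr1h2 from 15.5 to 27.1 CPM. Apoe ranged from 237.5 to 403 CPM, with PL saline at 299, 238 and 288 CPM and IL saline at 302, 403 and 350.4 CPM. Mvd, Tm7sf2, Nsdhl, Ebp, Fdps and Nr1h3 had fewer counts, at 1.05 to 19.6 CPM over all libraries, and wider intervals. Their log2 changes with Dex in PL lay between 0.05 and 0.37.

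A list of 45 further sterol genes, 42 of them tested, gave the surroundings of the members. In saline mice 4 of 42 were higher in PL than in IL and 11 were lower, where 9.97% and 8.7% of all genes were. Of these 42, 1 was called higher and 4 lower with the GC offset. Osbpl1a, an oxysterol-binding protein homologue, was higher (log2 difference 1.10), as were the isoprenoid genes Ggps1 (0.40) and Nus1 (0.39) and the SREBP protease gene Mbtps2 (0.35). Lower were the high density lipoprotein receptor Scarb1 (-0.62), the phospholipid transfer protein Pltp (-0.77), the transporter Abcg4 (-0.54), the SREBP escort Scap (-0.41) and the other SREBP protease gene, Mbtps1 (-0.42). With the GC offset Mbtps1 was at -0.35 and still called, while Scap was at -0.08 (adjusted p = 0.597) and Mbtps2 at 0.10 (adjusted p = 0.625). In Dex mice 1 of 42 was called, Osbpl1a (1.07), and for Dex in PL or IL none was. In PL the level of Srebf2 was 267.9 ± 33.0 CPM with Dex and 200.9 ± 18.9 CPM with saline (SD, n = 3; log2 change 0.41, edgeR adjusted p = 0.191). For Scap the log2 change was also 0.41 (edgeR adjusted p = 0.194) and for Insig1, which retains Scap in the endoplasmic reticulum, 0.19 (edgeR adjusted p = 0.444). With the offset the changes were 0.17, 0.16 and 0.21.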

How the data were processed

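PolyA RNA-seq counts of 12 libraries, 3 in each of 4 groups, were used as the authors deposited them: whole-number counts per gene without normalization. Per the file headers, featureCounts 2.0.1 counted paired reads on exons of GRCm38 release 98, with no strand option and no option for reads that map to several places; the other column used is the summed exon length in bases, also deposited by the authors. The tools HISAT2, SAMtools 1.8, Trim Galore and bcl2fastq are named in the submitters' processing notes without their order. The notes give the build as mm39, and the coordinates here are those of the table's own build, GRCm38. A further 12 count columns matched no sample and were not used.

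Counts were fitted in edgeR 4.0.16 (R 4.3.3) with TMM factors of 0.935 to 1.05, filterByExpr, robust quasi-likelihood and 1 mean per group over 12 libraries (8 residual degrees of freedom, biological coefficient of variation 0.143). P-values were two-sided and adjusted by Benjamini-Hochberg over 20015 genes. Symbols were found for 55154 genes. CPM use TMM-scaled library sizes, and totals of 5419187 to 16530596 set the precision. The script was tested on simulated data. GC offsets remove a per-library trend of log count on GC. Alternatives were DESeq2 1.42.0, RLE factors, no filter, only the groups compared, each library left out, the GC offset, and a replicate block on the sample number. That number equals the labels' batch number, whose meaning they do not state, and this is where the pairing comes from. Deviations of same-numbered libraries correlated at 0.348 to 0.409 between IL saline and IL Dex, at 0.0115 to 0.176 between PL saline and PL Dex, at 0.032 to 0.276 between PL and IL saline, and at -0.125 to 0.0401 between PL and IL Dex.

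The members and gene lists were chosen with earlier results of these data known. Members called in any comparison, or with an unadjusted p under 0.05 for an effect of Dex or the interaction, are given per library and the rest by range; of the other sterol genes those called, at most 8 per comparison by p, plus Srebf2, Scap and Insig1.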

Additional observations from a re-analysis of the deposited data

Results flagged for a closer look

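Pmvk, which adds the second phosphate to mevalonate, is listed because Dex and saline libraries separated in opposite directions in the 2 regions. In PL its levels were 16.7, 21.9 and 17.8 CPM with Dex and 16.2, 15.3 and 15.8 CPM with saline, so every Dex library was higher. In IL they were 14.8, 14.1 and 15.4 CPM with Dex and 15.7, 17.02 and 18.6 CPM with saline, so every Dex library was lower. The difference between the log2 changes was 0.46 (SE 0.215), with an unadjusted p of 0.0441 and an adjusted p of 0.716 in edgeR. With the GC offset it was 0.22.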

How the results depend on the processing

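Against a main count of 0 members called for Dex in PL, 1 was called without the filter on low counts. When single libraries were left out 0 to 4 were called, the 4 without PL Dex 3. Of all genes 0.02% were called in the main fit, 0.496% without the filter and 7.07% without PL Dex 3. For PL against IL in Dex mice, 5 members were called, beside 7.34% of all genes. With only the groups compared the count was 1, beside 5.79% of all genes. Without PL saline 1 and PL Dex 1, a setting chosen after seeing the data, it was also 1, beside 5.23%. With single libraries left out it was 1 to 5, beside 3.75% to 8.28%. For PL against IL in saline mice the count was 11, beside 18.7% of all genes. With single libraries left out it was 8 to 14, beside 8.99% to 22.1%. For Dex in IL and the interaction it was 0 in every setting run. With the replicate block the counts were 0 for Dex in PL, 0 in IL and 0 for the interaction. For PL against IL they were 12 in saline mice and 4 in Dex mice, beside 20.9% and 8.63% of all genes. Besides Cyp46a1 and Sqle, no other call of a member changed under the block alone. The log2 difference of Cyp46a1 between PL and IL saline changed sign with the GC offset (0.00814) and with the block and offset together (0.00793). For the 38 values of members with an unadjusted p under 0.05 in a comparison, 756 values were computed under alternatives, of which 675 kept their direction and side of the threshold, 58 lost a call, 21 gained one and 2 changed sign. Over all 30 members, the GC offset alone turned the sign of 4 values for Dex in PL, 4 for the interaction, 7 for PL against IL in saline mice, and 0 in the other comparisons. With 3 libraries a group and 17 to 46 counts for Fdps or 7 to 37 for Nr1h3, small changes in these genes were not detectable at these counts. Both genes also overlap another gene on the same strand, and its part in their low counts was not tested.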

Other observations

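The 18 synthesis enzymes can also be read as a summed level per kilobase of exon. The sum was 206, 236 and 229.9 CPM per kb in PL saline, 211, 194 and 226 CPM per kb in PL Dex, 151, 161 and 164 CPM per kb in IL saline, and 157, 162 and 170.0 CPM per kb in IL Dex. Every PL library was above every IL library, in either treatment. These sums use CPM without the GC offset, and the libraries differ in their slope on GC as given above. Hmgcs1 alone made up 32.4% ± 2.30 of the sum in PL saline and 28.4% ± 3.62 in PL Dex (SD, n = 3), against 23.8% ± 0.309 in IL saline and 24.7% ± 1.81 in IL Dex. Without Hmgcs1 the sums were 151 ± 12.7 and 150.1 ± 4.00 CPM per kb in PL saline and PL Dex, and 121 ± 5.54 and 123 ± 7.30 CPM per kb in IL saline and IL Dex. The regions were still separate without it, with the lowest PL library at 137 CPM per kb and the highest IL library at 129.7 CPM per kb, while PL saline and PL Dex overlapped.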
